A study of Mus musculus with 2 samples.

Results

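Striatal direct pathway-type neurons were 194 of the 12846 barcodes that passed the filters on genes and mitochondrial reads in 2 single-cell RNA sequencing libraries of mouse telencephalic tissue at P0. They were 115 of 6766 barcodes in the WT library and 79 of 6080 in the STINGf/f;Nestin-Cre (cKO) library. Both libraries came from C57BL/6 mice, and each genotype had 1 library, so no value below has a replicate check. The study's methods describe dissected neonatal cerebral cortex dissociated with papain and loaded on the 10x Genomics platform. STING is the innate immune adaptor encoded by Tmem173, and Nestin-Cre acts in neural progenitors and therefore in the neurons and macroglia that descend from them. The labels give the control as WT, while the study's text names it both wild-type and STINGfl/fl, so whether the control carried the floxed allele is not settled here. The comparison of the libraries asked what differed between newborn neurons with and without this deletion.

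Projection neurons of the striatum are GABAergic cells that are born in the lateral ganglionic eminence and settle below the cortex. Those of the direct pathway project to the substantia nigra and the internal globus pallidus, use the transcription factors Isl1 and Ebf1 to acquire their identity, and later express the dopamine receptor Drd1 and the neuropeptides substance P (Tac1) and dynorphin (Pdyn). Those of the indirect pathway project to the external globus pallidus and express enkephalin (Penk), the adenosine receptor Adora2a and the dopamine receptor Drd2. Both types carry Bcl11b, the zinc finger factor also called CTIP2, and the forkhead factor Foxp1.

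The members were chosen by their own counts of unique molecular identifiers (UMIs), each standing for 1 captured transcript. A member had at least 1 UMI of Gad1 and Gad2 together, at least 1 of Bcl11b, at least 3 of Isl1, Ebf1 and Tac1 together, and more of these than of Penk, Gucy1a3 and Adora2a. It had no Lhx6 UMI, under 3 of Adarb2, Prox1, Npas1 and Htr3a together, at most 1 of Neurod2 and Neurod6, and under 3 of Mki67, Top2a and Cenpf. The levels of these 19 genes therefore describe the choice and were not tested. Of the 162 WT and 100 cKO barcodes that met the requirements for Gad1, Gad2, Bcl11b, Isl1, Ebf1 and Tac1, the remaining conditions left 115 and 79.

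The promoters of Tac1 and Isl1 are shown because both genes define the members and because each held the same short motif 2 times. The windows of Ebf1, Bcl11b and Drd1 held neither motif searched, and 2 of the 3 Foxp1 windows held 1 match each. Each run holds the 250 bases before a RefSeq transcript start on GRCm38.p6, written on the strand of the gene. The Tac1 run lies on the plus strand at chr6:7554811-7555060, and the Isl1 run on the minus strand at chr13:116309689-116309938. Capitals mark TGACG or its reverse complement CGTCA, the short core of the cAMP response element, and TAATTA, a core bound by homeodomain proteins.
Tac1: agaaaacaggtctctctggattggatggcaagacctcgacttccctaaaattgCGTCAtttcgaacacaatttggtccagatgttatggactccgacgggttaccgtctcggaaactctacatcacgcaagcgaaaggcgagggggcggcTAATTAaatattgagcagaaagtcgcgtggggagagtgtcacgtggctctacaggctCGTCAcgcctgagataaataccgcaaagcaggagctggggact
Isl1: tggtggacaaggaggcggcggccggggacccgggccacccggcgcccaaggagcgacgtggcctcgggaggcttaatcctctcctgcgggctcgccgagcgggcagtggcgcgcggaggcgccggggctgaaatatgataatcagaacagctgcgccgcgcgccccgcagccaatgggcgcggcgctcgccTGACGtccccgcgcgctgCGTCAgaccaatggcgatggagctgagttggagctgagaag
That core began at positions -197 and -43 of Tac1 and at -59 and -41 of Isl1, and TAATTA began at -100 of Tac1. On either strand TGACG was found in 17.8% of 32851 such windows over all genes, and TAATTA in 4.84%. A match describes letters only.

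The libraries held 69554624 UMIs over 10715 barcodes (WT) and 67448785 UMIs over 9198 barcodes (cKO). Members had a median of 6388 UMIs in WT, with a range of 807 to 24385, and of 9496 in cKO, with a range of 2095 to 28713, so the cKO members were sampled more deeply. All filtered barcodes had medians of 6653 and 7629. Tmem173 had 132 UMIs over the filtered WT barcodes and 18 over the cKO barcodes but none among the members of either library, where 3 counts would be 3.22 and 3.41 CPM, in which the UMIs of a gene are divided by all UMIs of the set, so the deletion could not be checked in these cells. Among members Xist had 0 UMIs in WT and 863 in cKO while 4 Y-linked genes had 170 and 0, so sex differed between the libraries along with genotype and the 2 cannot be told apart. The libraries shared 19 barcode sequences, none of them a member's.

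Members made up 1.70% of the filtered WT barcodes (95% exact binomial interval 1.41 to 2.04). Of the filtered cKO barcodes they made up 1.30% (1.03 to 1.62). The difference was -0.400 percentage points with a 95% interval of -0.823 to 0.0237, which held 0, so a difference was not detectable at this depth. The direction depended on the filter and the rule: without any filter on barcodes it was 0.134 points, and with at least 1000 genes and at most 5% mitochondrial UMIs, which left 11 and 12 members, it was 0.235 points. With 2 of the 3 genes Isl1, Ebf1 and Tac1 required it was 0.0064 points. As a share of GABAergic neurons the members were 7.38% of the WT cells (6.13 to 8.79) and 5.72% of the cKO cells (4.56 to 7.08). Indirect pathway-type neurons, taken by the mirror of the rule, were 3.02% in WT (2.62 to 3.45) and 1.94% in cKO (1.61 to 2.32). Of the cells taken by either rule, members were 36.05% in WT (30.8 to 41.6) and 40.1% in cKO (33.2 to 47.3), a difference of 4.05 points (-4.47 to 12.7). Intervals here and below cover counting error only, since cells of 1 library share their source, and the share of striatum in each dissection is not known.

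Isl1 is a LIM homeodomain factor and Ebf1 a helix-loop-helix factor, and not every member carried both. Both had a UMI in 51 of 115 WT members (44.3%, 35.1 to 53.9) and in 52 of 79 cKO members (65.8%, 54.3 to 76.1). Isl1 without Ebf1 was found in 53 WT members (46.1%, 36.8 to 55.6) and in 10 cKO members (12.7%, 6.24 to 22.0). Ebf1 without Isl1 was found in 10 (8.70%) and 16 (20.3%) members, and 1 member of each library had Tac1 alone. WT members with Isl1 but no Ebf1 were shallower, with a median of 4267 UMIs against 8641 in those with both. Among members with at least 5000 UMIs the shares of Isl1 without Ebf1 were 30.6% in WT (22 of 72, 20.2 to 42.5) and 13.6% in cKO (9 of 66, 6.43 to 24.3). These genes are part of the rule, so the shares are a description.

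**Figure D1:**
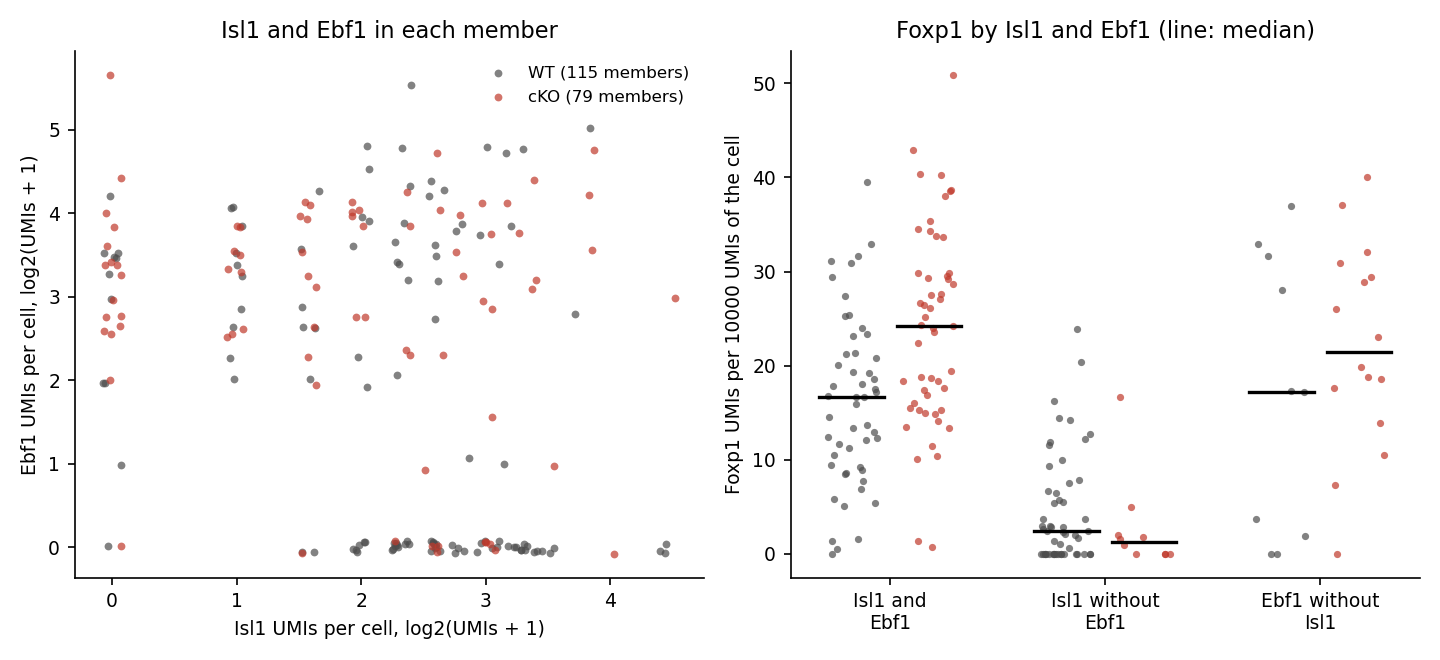
Left, Isl1 against Ebf1 UMIs of each member on a log2(UMIs + 1) scale with a small random shift so that points do not hide each other, WT in grey (115) and cKO in red (79); the row at 0 on the vertical axis holds the 53 WT and 10 cKO members with Isl1 but no Ebf1 and, at its left end, the member of each library with neither. Right, Foxp1 UMIs per 10000 UMIs of each member by combination, with a line at the median, which was 16.7 (WT) and 24.3 (cKO) with both genes and 2.46 and 1.25 with Isl1 alone.

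Foxp1, the marker given for these cells that the rule did not use, separated the combinations. Its level was 1463 CPM in WT members with Isl1 and Ebf1 (Poisson 95% interval 1360 to 1573) and 2153 in cKO (2039 to 2272). In members with Isl1 and no Ebf1 it was 432 CPM in WT (366 to 507) and 322 in cKO (212 to 469), and 19 of the 53 WT members and 4 of the 10 cKO members had no Foxp1 UMI. With Ebf1 and no Isl1 it was 1573 and 2128 CPM. Both striatal types carry Foxp1, so it can speak for a striatal projection neuron but not for the direct pathway. In that sense it went with the given name in most members with Ebf1, and against it in many of those with Isl1 alone. Other striatal genes outside the rule were mixed in WT. Drd1 was at 54.8 CPM (33.0 to 85.5) with Isl1 alone and 64.9 (44.7 to 91.2) with both. In the same order Foxp2 was at 510 and 311, Zfp503 at 187 and 138, and Rarb at 98.0 and 130. Among those lower with Isl1 alone were Meis2 (519 and 1273), Ppp1r1b (107 and 275), Zfp521 (14.4 and 62.9) and Pdyn (2.88 and 39.3). The 10 WT members with Ebf1 and no Isl1 had no Drd1 UMI, and 2 of them held 43 UMIs of the interneuron peptide Sst. In cKO the 16 such members had 15 Drd1 UMIs and no Sst UMI. Direct pathway-type therefore stands for the rule and not for a checked cell type, above all in the 53 WT and 10 cKO members with Isl1 alone. The shares of members among other cells and the values of members below include them unless the members with both genes are named, and some values are given for both sets.

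In WT 54 of 2922 genes with at least 30 UMIs were at least 2-fold higher in members with Isl1 alone than in those with both, and 73 were at least 2-fold lower, on the scale of log2(CPM + 10). The genes named here were chosen after their values were seen. Sox1, a transcription factor of neural progenitors and some ventral forebrain neurons, was at 458 CPM (390 to 535) in 45 of 53 WT members with Isl1 alone and at 45.2 CPM (28.7 to 67.9) in those with both. Rprm, a cell cycle inhibitor, was at 487 and 96.4 CPM. Cbln1, a synaptic organiser, was at 153 and 15.7 CPM, Nrp2, a semaphorin co-receptor, at 170.0 and 7.87 CPM, and Npy1r, a receptor of neuropeptide Y, at 95.1 and 5.90 CPM. The 10 cKO members with Isl1 alone had few UMIs of these genes: Sox1 was at 71.6 CPM (26.3 to 156) against 24.3 (13.6 to 40.05) with both genes, and Cbln1 at 95.5 (41.2 to 188) against 16.2 (7.76 to 29.8).

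The opposite end held Crabp1, a cytoplasmic retinoic acid binding protein, with 303 CPM (257 to 355) in WT members with both genes and 14.4 (4.68 to 33.6) in those with Isl1 alone. Ikzf1, the zinc finger factor Ikaros, had 66.9 CPM with both genes and no UMI in the 53 members with Isl1 alone. Plxnd1, the semaphorin receptor of direct pathway axons, had 62.9 and 2.88 CPM, and Dach1, a transcriptional cofactor, 116 and 5.76 CPM. In cKO Crabp1 was at 83.5 CPM with Isl1 alone and 468 with both, and Ikzf1, Plxnd1 and Dach1 had no UMI in the 10 cells with Isl1 alone. Calb1 was lower with Isl1 alone in WT (40.3 against 226 CPM) but not in cKO (47.7 against 27.5 CPM). Other genes of that end owed most of their UMIs in WT members with both genes to 1 cell. They were Apoe (44 of 63), Sparcl1 (34 of 50), Mfge8 (30 of 43), Id3 (26 of 31) and Reln (81 of 113). At the first end the 66 Gal UMIs of WT members with Isl1 alone lay in 1 cell. Such genes do not describe either set as a whole.

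Among the genes of the rule Bcl11b had a median of 9 UMIs per member in WT and 10 in cKO, Isl1 4 and 3, and Ebf1 3 and 9. Tac1 was concentrated in few cells: it had a UMI in 30 of 115 WT members and 22 of 79 cKO members, and the highest member held 27.7% and 27.0% of all Tac1 UMIs. The members just inside the threshold of 3 UMIs of Isl1, Ebf1 and Tac1 were 7 in WT and 3 in cKO, with 376 and 207 CPM of Foxp1. Those just outside, with 2 UMIs, were 6 and 4, with 178 and 155 CPM. All others together had 1089 and 2001 CPM. In cKO 1 of the 3 cells just inside held 131 UMIs of Sst and 104 of Npy, peptides of a class of interneurons.

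Of the 9 genes listed for the direct pathway outside the rule, 3 could be compared with indirect cells. At least 2-fold in both libraries, 2 were higher in members and none lower, beside 0.829% and 0.246% over all genes. Only some of the 9 are described here, so they do not stand for the list. Drd1, the dopamine receptor of this pathway, was sparse at this age. It had 53 UMIs in 18 of 115 WT members and 70 in 18 of 79 cKO members, or 56.8 CPM (42.6 to 74.4) and 79.5 CPM (62.0 to 100.4). Indirect pathway-type neurons had 3.12 and 0.989 CPM. The share of cells with a Drd1 UMI after each was thinned to 2000 UMIs was 5.61% of WT members and 6.33% of cKO members, against 15.7% and 22.8% before. Microglia, which should lack it, had a Drd1 UMI in 0 of 59 WT cells (median 10498 UMIs) and in 1 of 32 cKO cells (median 12470 UMIs). For the 0 of 59, 3 over the number of cells sets a limit of 5.08% on the share with a UMI. The exact binomial upper bound was 6.06%.

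Pdyn, the dynorphin precursor, was at 30.0 CPM (19.96 to 43.4) in WT members and 31.8 (21.1 to 45.9) in cKO members and below 1 CPM in indirect pathway-type neurons of both libraries. Zfp521, a zinc finger factor of the direct pathway, was at 40.8 and 52.2 CPM against 3.75 and 6.93 CPM. Ikzf1, which is in the striatal factor list and not in the direct pathway list, was at 39.7 and 55.6 CPM in members. It had 1 UMI in the 204 WT indirect cells and none in the 118 cKO cells. The muscarinic receptor Chrm4 had no UMI in any set of cells of either library, so it sets nothing apart, and the receptor Drd2 had none in members. Drd2 had 0.624 CPM in the WT indirect cells and none in the cKO cells, so its absence from members does not set the 2 types apart at this depth.

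Direct and indirect pathway-type neurons were compared within each library over 3257 genes with at least 50 UMIs in either type in both libraries. At least 2-fold in both libraries, 27 were higher in the direct type, a background of 0.829%, and 8 were lower, a background of 0.246%. With only the members that had both Isl1 and Ebf1, 18 were higher and 14 lower, and without the members with 5 or more UMIs of the glial list 24 were higher and 16 lower. Both types had been chosen by Isl1, Ebf1, Tac1, Penk, Gucy1a3 and Adora2a, which were left out of this count. Drd1, of the direct pathway list outside the rule, was among the 27. Transcripts of endothelial cells differed between the indirect sets, where the markers summed to 258 CPM in WT and 3.96 in cKO, and were at 0 and 1.14 CPM in members; their part in these ratios was not tested.

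Among the genes furthest above the indirect type was Drd1, with a log2 ratio of 4.19 in WT (95% interval 2.87 to 5.87) and 6.33 in cKO (3.80 to 11.65). Reln, a secreted matrix protein, had 3.79 and 3.60, but 1 WT member held 62.8% of its UMIs there. Nefl, the light neurofilament chain, had 2.86 and 3.64. The vesicle protein Syt4 had 2.21 and 2.88, and the neurotrophin-3 receptor Ntrk3 had 2.10 and 2.29. Lingo2 (2.97 and 4.54) and Lrfn5 (2.14 and 2.61) are leucine-rich repeat membrane proteins, Ramp1 (2.83 and 3.72) is a subunit of the CGRP receptor, and Tmem158 (1.94 and 2.01) is a membrane protein. Each of these 9 genes was higher in members in both libraries with an interval above 0. They were picked among the largest ratios with the same direction in both libraries, so this followed from the choice.

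Foxp2, the forkhead relative of Foxp1, was also higher in members, with 373 CPM (335 to 415) in WT and 315 (279 to 354) in cKO against 100 and 41.6 CPM in indirect cells. Foxp1 itself went the other way, at 1075 CPM (1009 to 1143) in WT members and 1942 (1851 to 2036) in cKO members against 1758 and 2561 in indirect cells. In the members with Isl1 and Ebf1 it was 1463 and 2153 CPM, still below the indirect cells. Foxp1 shares 302 bases at 100% identity with the overlapping model Gm20696 on its strand, so the 2 may not be separated by the counting.

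The lower end was led by Sp9, a zinc finger factor needed for indirect pathway neurons, with 19.3 CPM in WT members against 363 and 12.5 CPM in cKO members against 335. The log2 ratios were -4.23 (-5.00 to -3.56) and -4.75 (-5.76 to -3.89). Six3, a homeodomain factor with the same role, had -2.91 (-3.32 to -2.53) and -3.55 (-4.27 to -2.91). The progenitor factors Sox2 (-2.96 and -2.05) and Sox9 (-3.10 and -2.31) and the inhibitor of helix-loop-helix factors Id4 (-1.67 and -2.10) came next. Mpped2, a phosphoesterase, had -1.78 and -1.16, Ikzf2, the factor Helios, had -1.89 and -4.58, and the ganglionic eminence factor Dlx2 had -1.11 and -1.65. Zswim6 had -1.17 and -1.16, and Gm13889 -1.10 and -1.19. On the scale of log2(CPM + 10) Dlx2 and Gm13889 had -0.96 and -0.97 in WT and did not reach 2-fold, so the other 8 were those counted.

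**Figure D2:**
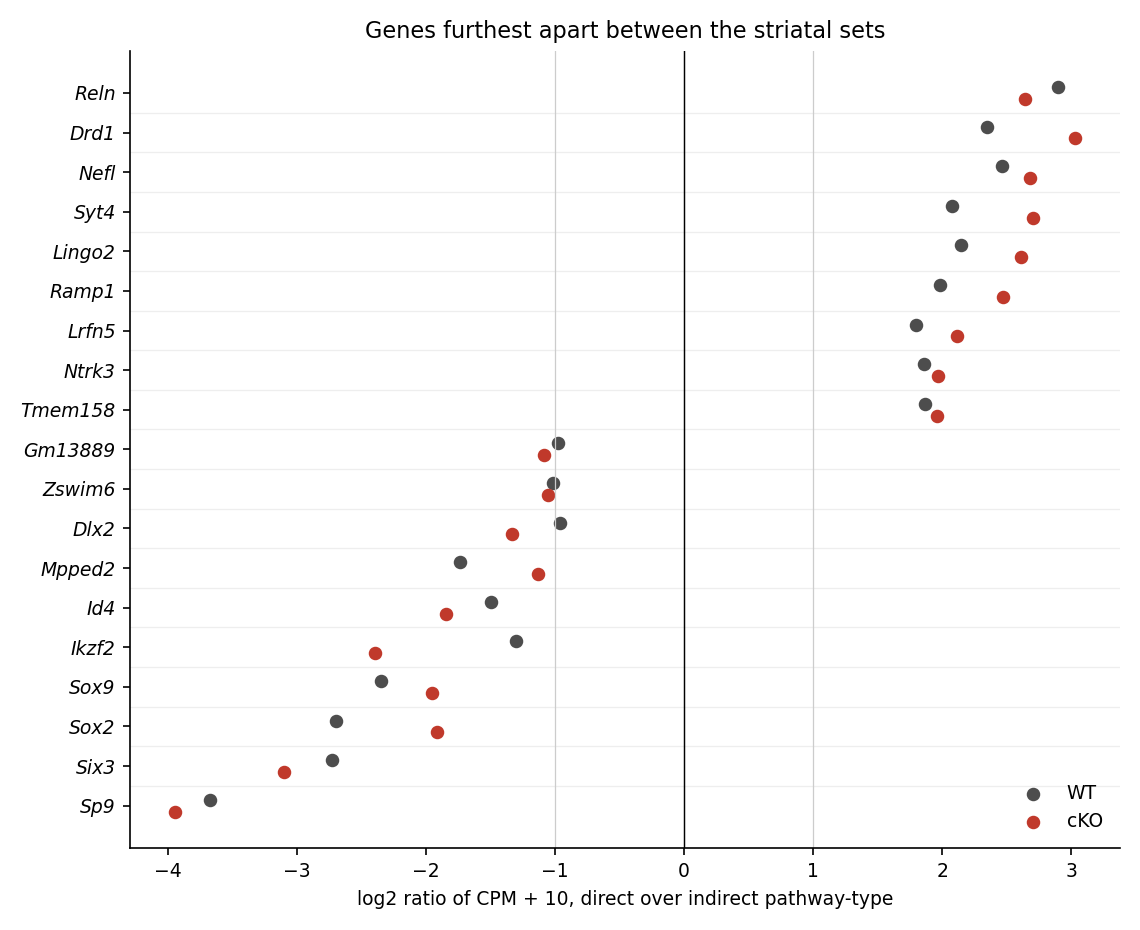
Log2 ratio of CPM + 10, direct over indirect pathway-type neurons, for 9 genes far up and the 10 furthest down, WT in grey and cKO in red, with lines at 0 and at 2-fold in each direction. Drd1 lies at 2.35 (WT) and 3.03 (cKO) and Sp9 at -3.67 and -3.94. All 19 genes lie on 1 side of 0 in both libraries, which the choice of genes required.

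Against the other GABAergic neurons, 139 of 8393 genes were at least 2-fold higher in members in both libraries (1.66%) and 174 lower (2.07%). In that set Sp9 had a UMI in 68.8% (WT) and 61.03% (cKO) of cells and Npy in 14.6% and 16.9%. Cortical glutamatergic neurons had an Npy UMI in 12.6% and 11.7% of cells, so the Npy share says little of the set. The highest ratio was that of Ppp1r1b, the dopamine-regulated phosphatase inhibitor DARPP-32, with 201 CPM (173 to 231) in WT members and 375 (335 to 417) in cKO members against 3.36 and 3.18 CPM. It was found in 23 of 115 and 17 of 79 members (7.48% and 12.7% of cells after thinning to 2000 UMIs), against 2 of 59 and 1 of 32 microglia, and 1 member held 18.7% and 22.4% of its UMIs. Indirect cells had 86.1 and 68.3 CPM. Arpp21, a phosphoprotein of striatal neurons, was at 444 CPM in members of both libraries against 42.0 and 29.1 CPM. The retinoid receptors Rarb (116 and 86.3 against 12.3 and 6.90 CPM) and Rxrg (145 and 103 against 13.7 and 6.90 CPM) and the striatal zinc finger factor Zfp503 (159 and 126 against 8.68 and 19.5 CPM) were higher likewise. Rarb had a UMI in 49.6% (WT) and 51.9% (cKO) of members and in 46.1% and 43.2% of indirect cells. For Zfp503 the shares were 60.9% and 63.3% of members and 42.6% and 56.8% of indirect cells. Higher in members too were Foxp1, the calcium-binding protein Caln1, Tmem158, the GABA receptor subunit Gabra5 and the ephrin receptor Ephb1. Rarb overlaps Top2b on the opposite strand, and whether the counting used strand is not given in the sources used here.

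Against cortical glutamatergic neurons, 170 of 10352 genes were higher in both libraries (1.64%) and 162 lower (1.56%).

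Lower in members than in the other GABAergic neurons were the ganglionic eminence factors Dlx1 (34.3 and 11.4 against 432 and 435 CPM), Dlx2 and Sp9, the interneuron factor Maf (15.02 and 5.68 against 168 and 255 CPM), the cyclin Ccnd2, and the transcription factors Zeb2, Nfib and Tcf4. Cldn5, a tight junction protein of endothelial cells, had no UMI in members and 156 and 84.0 CPM in the other set, and Sepp1, a secreted selenoprotein, had 1.07 and 12.5 against 137 and 130 CPM. The other GABAergic set held the remaining cells with at least 1 UMI of Gad1 and Gad2 together, at most 1 of Neurod2 and Neurod6, and under 3 of Mki67, Top2a and Cenpf. Endothelial markers summed to 217 and 123 CPM there, and their part in the ratios was not tested.

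**Figure D3:**
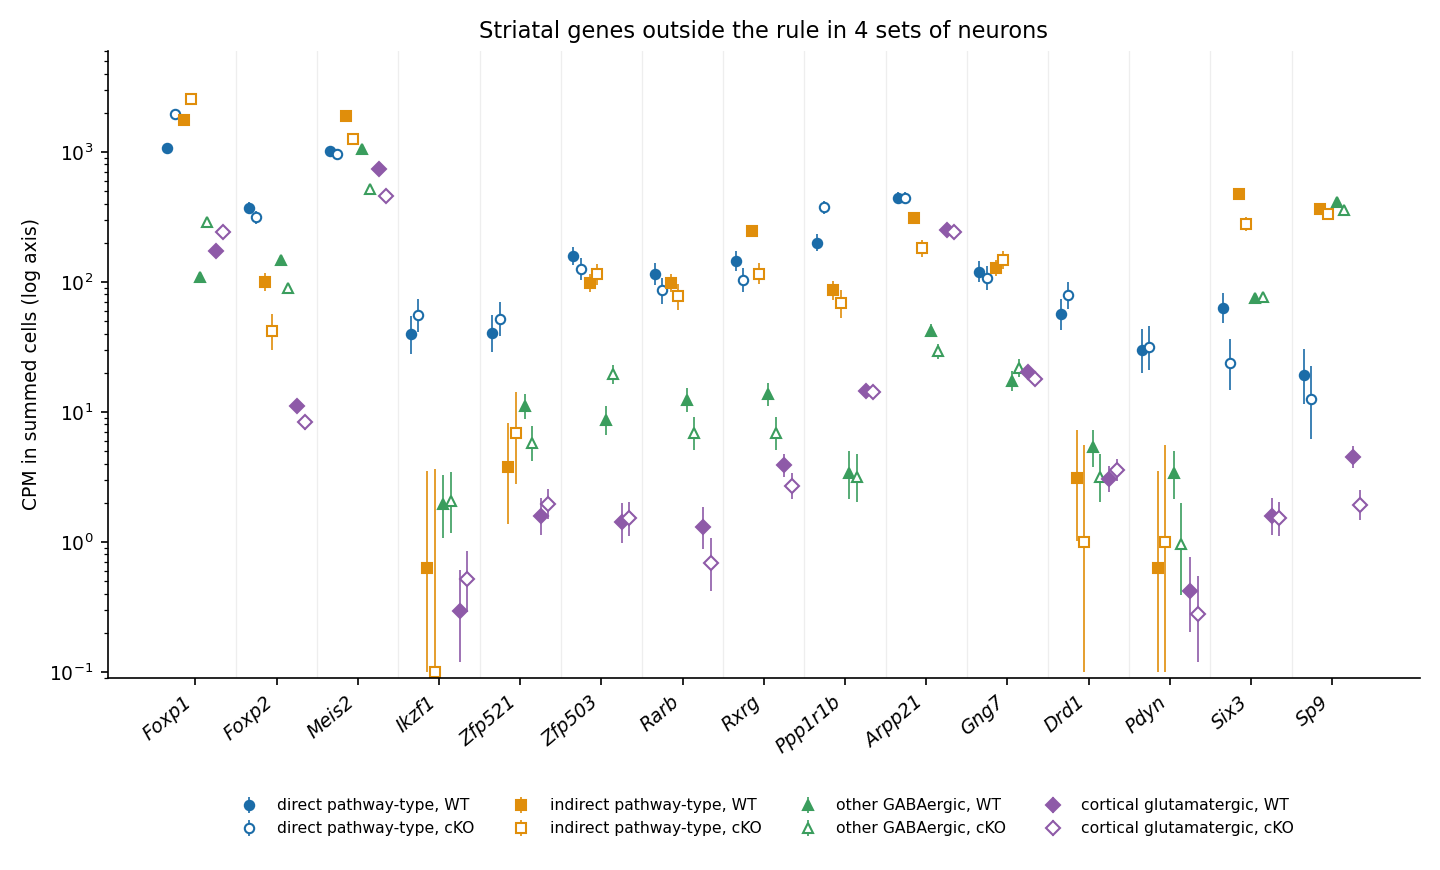
CPM in summed cells on a log axis for 15 striatal genes outside the rule in 4 sets of neurons, filled symbols for WT and open symbols for cKO, with Poisson 95% intervals and values under 0.1 drawn at 0.1. In both libraries Ikzf1, Zfp521, Drd1 and Pdyn stand above the other 3 sets in members, Foxp1 is highest in indirect cells, and Sp9 is lower in members than in the indirect and other GABAergic sets.

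Of 29 striatal projection neuron factors and maturation genes in the files, 27 could be compared with other GABAergic neurons, and 12 were at least 2-fold higher in members in both libraries and 4 lower, with median log2 ratios of 0.89 in WT and 1.32 in cKO against -0.05 and -0.06 over all genes compared, of which 1.66% were higher and 2.07% lower. Of 18 dopamine and cAMP signalling genes 17 could be compared, and 8 were higher and none lower, with medians of 1.02 and 1.29. Of the 14 retinoid genes 6 could be compared and 4 were higher, with medians of 1.21 and 1.98, beside the same 1.66% over all genes. Against indirect cells these lists differed less. Of 21 striatal genes 2 were higher and 2 lower (medians -0.21 in WT and -0.01 in cKO). Of 15 dopamine and cAMP genes 2 were higher and none lower (0.29 and 0.44). None of 4 retinoid genes was called (-0.13 and 0.18). The lists thus mostly describe traits that members shared with the indirect type.

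Between the libraries 74 of the 3501 genes with at least 50 UMIs in the members of either library were at least 2-fold higher in cKO members (2.11%) and 148 were at least 2-fold lower (4.23%). The median over all 3501 was 0.02 on the scale of log2(CPM + 10). Among members with both Isl1 and Ebf1, 82 of 2290 genes were higher and 72 lower, so the excess of lower genes was not seen there. The genes furthest up and down are given below as those that differed alike in every neuronal set, those carried by few cells, and those whose ratio was closer to 0 in members with both genes. AI854517 is given with the second kind, though it did not clearly belong there. Its log2 ratio of CPM + 10 was 1.62 in all members, 1.34 without members with glial UMIs and 1.77 with both genes.

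Among those that differed in every set was Gm8730, a processed pseudogene of the ribosomal protein gene Rplp0 at chr8:102864845-102865798 (GRCm38, minus strand), with 28 UMIs in 24 WT members and 564 UMIs in 76 cKO members. Its level was 30.0 CPM (19.96 to 43.4) against 640 (589 to 695), a log2 ratio of 4.41 (3.87 to 5.02), and ratios in indirect, other GABAergic and cortical glutamatergic neurons were 4.70, 4.85 and 4.71. It matches Rplp0 over 954 bases at 98.7% identity, so reads may have been split between them. Arrdc4, an arrestin of the family of Txnip, was at 35.4 and 235 CPM in members, 2.73 (2.20 to 3.31), and had 2.84, 1.79 and 2.78 in the other sets. Gm26917 had 2.17 in members and 2.07, 1.84 and 2.20 in the others.

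Downward, Mrpl14, a mitochondrial ribosomal protein, was at 92.2 CPM (73.8 to 114) in WT members and 6.81 (2.50 to 14.8) in cKO members, a log2 ratio of -3.76 (-5.24 to -2.58), with -3.19, -3.14 and -3.08 in the other sets. Fam136a, a mitochondrial protein, was at 72.9 and 6.81 CPM, with -3.42 (-4.92 to -2.22) in members and -4.74, -3.63 and -4.15 elsewhere. It shares 412 bases at 97.1% identity with Fam136b-ps. The transcription factor Gtf2i (-2.55) and the neuronal RNA-binding protein Elavl4 (-2.60) had -2.64 and -2.55 in indirect neurons, -2.31 and -1.69 in other GABAergic neurons and -1.82 and -1.79 in glutamatergic neurons. These 7 genes lay on the same side in all 4 neuronal sets.

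**Figure D4:**
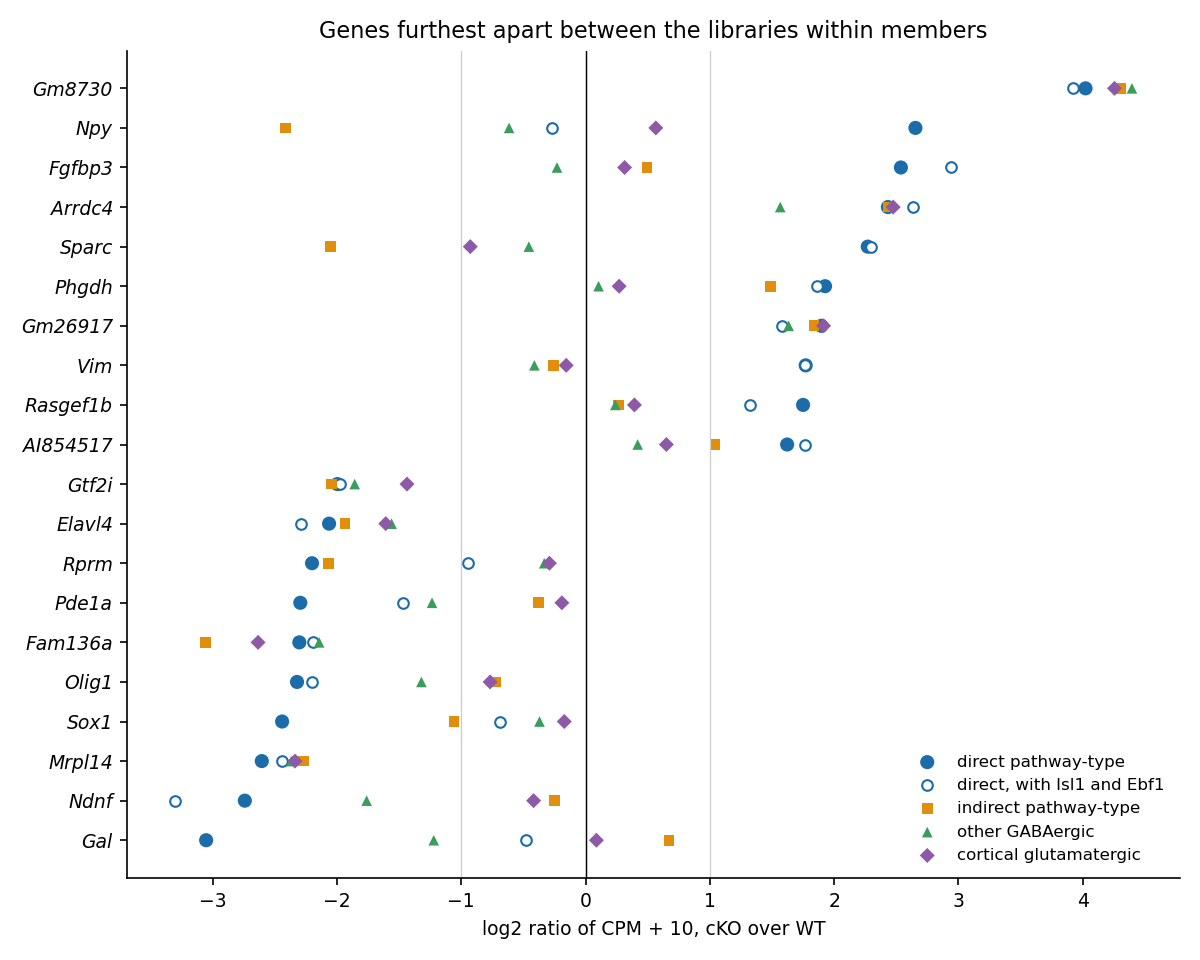
Log2 ratio of CPM + 10, cKO over WT, for the 10 genes furthest up and the 10 furthest down in members: filled blue circles for all members, open circles for members with Isl1 and Ebf1, orange squares for indirect, green triangles for other GABAergic and purple diamonds for cortical glutamatergic neurons. Gm8730, Arrdc4, Gm26917, Mrpl14, Fam136a, Gtf2i and Elavl4 lie on 1 side in all sets, while Npy, Sox1 and Gal move toward 0 in members with both genes.

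Single cells carried several others. Npy was at 11.8 CPM in WT members and 127 in cKO members, but 1 cKO cell held 92.9% of its UMIs there, and without the members with 5 or more UMIs of Sst and Npy the ratio on the scale of log2(CPM + 10) was -0.14. That setting leaves out cells by their Npy UMIs, so a smaller ratio was set in advance. Gal had 68 UMIs in 3 WT members, 97.1% of them in 1 cell, and none in cKO, and in members with both genes its ratio on that scale was -0.48. Ndnf had 53 in 3 WT members, 84.9% in 1 cell, and none in cKO. Lhx8 and Nkx2-1, factors of the medial ganglionic eminence, had their 21 and 12 UMIs in 1 WT member each and none in cKO.

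Fgfbp3, Sparc, Phgdh, Vim and AI854517 were higher in cKO members, with log2 ratios between 1.96 and 3.43. Vim and Phgdh are abundant in radial glia, and Sparc in glia and vessels. The 5 genes of the astrocyte and radial glia list summed to 478 CPM in WT members and 1076 in cKO members. Most came from few cells: 4 WT members with 5 or more of these UMIs held 411 of 446, and 5 cKO members held 928 of 948. Of the list's defining genes Aqp4 had 4.29 and 2.27 CPM, and Slc1a3 46.1 and 114 CPM. Without those members the Fgfbp3 ratio on the scale of log2(CPM + 10) was -0.19. In the same setting Sparc had 0.39, Phgdh 0.55 and Vim 0.78, while AI854517 had 1.34 and stayed past 2-fold. Summed over each list, markers of microglia (3.22 and 2.27 CPM), endothelial cells (0 and 1.14 CPM) and mural cells (9.65 and 7.95 CPM) were low in members. Other lists were not: cortical interneuron markers summed to 285 and 416 CPM, with a UMI in 49 and 45 members, oligodendrocyte precursor markers to 115 and 13.6 CPM, cycling and ventral progenitor markers to 92.2 and 271 CPM, cortical glutamatergic markers to 51.5 and 35.2 CPM, and cholinergic markers to 45.05 and 0 CPM. Without the members with 5 or more UMIs of Sst and Npy, 75 genes were at least 2-fold higher in cKO and 149 lower. Otherwise the part of these lists in the ratios was not tested. Olig1, an oligodendrocyte lineage factor, was at 74.0 and 6.81 CPM in members, from 5 and 3 cells. On the scale of log2(CPM + 10) its ratio was -2.32 in all members and -0.30 without the members with glial UMIs.

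Sox1, Rprm and Pde1a were lower in cKO members. Sox1 had 185 UMIs in 57 WT members and 25 in 14 cKO members, 198 CPM (171 to 229) against 28.4 (18.4 to 41.9), a log2 ratio of -2.81 (-3.47 to -2.20). In members with both Isl1 and Ebf1 it was -0.90 (-1.94 to 0.10), an interval that held 0. In members with Isl1 alone, 53 in WT and 10 in cKO, it was at 458 CPM (390 to 535) and 71.6 (26.3 to 156). Rprm was at 250 CPM (219 to 284) and 46.6 (33.4 to 63.2), -2.42 in all members and -1.09 (-1.81 to -0.39) in those with both. With Isl1 alone Rprm was at 487 CPM (416 to 566) and 119 (57.2 to 219). Both genes were thus lower in cKO with Isl1 alone as well. Indirect cells had -2.50 for Rprm. Pde1a, a calmodulin-dependent phosphodiesterase, had 52 UMIs in 21 WT members and 3 in 2 cKO members. On the scale of log2(CPM + 10) it had -2.29 in all members and -1.47 in those with both genes.

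Rasgef1b, a guanine nucleotide exchange factor, was at 19.3 CPM (11.4 to 30.5) in 13 WT members and 88.6 (70.0 to 110) in 41 cKO members, a log2 ratio of 2.20 (1.44 to 3.02). It was 1.59 (0.75 to 2.52) in members with both genes and 0.34 (-0.29 to 0.97) in indirect cells. The difference between the 2 striatal types was not tested.

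Several striatal genes outside the rule differed less. Of the rule's own genes, Isl1 had -0.73, Bcl11b -0.42, Ebf1 0.10 and Tac1 0.66 on the scale of log2(CPM + 10). Those 4 values describe the choice of members. Foxp1 was higher in cKO members, 0.85 (0.74 to 0.97) in log2 ratio, and 0.56 (0.43 to 0.69) in those with both genes, and it was also higher in indirect (0.54), other GABAergic (1.38) and glutamatergic neurons (0.49). Drd1 differed by 0.48 (-0.05 to 1.03) and Pdyn by 0.08 (-0.73 to 0.89), intervals that held 0. Ppp1r1b differed by 0.90 (0.64 to 1.17) in all members but by -0.05 (-0.39 to 0.28) in those with both, and by -1.29 on the scale of log2(CPM + 10) with the stricter barcode filter. Meis2, a homeodomain factor of the lateral ganglionic eminence, differed by -0.08 (-0.22 to 0.05) in all members and by -0.35 (-0.51 to -0.19) in those with both genes, at 1273 and 999 CPM. Arpp21 was at 444 CPM in all members of both libraries, with an interval of the log2 ratio of -0.20 to 0.20, and differed by -0.37 (-0.65 to -0.10) in those with both genes.

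Calb1, the calcium buffer of matrix neurons, was the 1 gene of the 4 in the matrix list past 2-fold. Over all genes 2.11% were higher and 4.23% lower, and a list of 4 genes is too short to set against that. Calb1 had 133 UMIs in 29 of 115 WT members and 30 UMIs in 9 of 79 cKO members, 143 CPM (119 to 169) and 34.1 (23.0 to 48.6). The log2 ratio was -2.07 (-2.69 to -1.49), and it was -3.04 (-3.87 to -2.30) in members with both genes. Indirect cells had 74.9 and 9.89 CPM, a ratio of -2.92 (-4.02 to -1.99). A Calb1 UMI was found in 6.69% (WT) and 4.90% (cKO) of other GABAergic neurons. In cortical glutamatergic neurons the shares were 4.17% and 2.34%, so a lower share in cKO was not particular to striatal cells. The other 3 genes of the matrix list, Epha4, Rasgrp2 and Gda, and the 2 striosome genes with enough UMIs, Lypd1 and Tshz1, were within 2-fold in all members. In members with both genes Tshz1 was at 27.5 CPM (15.1 to 46.2) in WT and 58.3 (40.8 to 80.7) in cKO.

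In lists, 1 of 20 striatal factor and maturation genes compared was at least 2-fold higher in cKO members and 1 was lower, with a median log2 ratio of -0.17 against 0.02 over all genes. Over all genes 2.11% were higher and 4.23% lower, so the counts of this and the following lists, which held 20 genes or fewer, were near that background and show nothing particular to the lists. The higher one was Nrgn, a calmodulin-binding protein, at 81.5 and 188 CPM, where 1 cKO member held 66.9% of the UMIs and members with both genes differed by 0.29 (-0.43 to 1.02). The lower one was Six3, at 63.3 and 23.8 CPM, but in members with both genes it was at 37.4 (22.5 to 58.4) and 21.05 CPM (11.2 to 35.99), and did not reach 2-fold. None of 15 dopamine and cAMP signalling genes reached 2-fold, with a median of -0.06 and a range of -0.94 for Rgs2, a regulator of G protein signalling, to 0.87 for Ppp1r1b. None of 4 retinoid genes did, among them Crabp1 at 191 and 368 CPM and Rxrg at 145 and 103 CPM.

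Of 11 axon guidance genes 1 was higher and 1 lower, with a median of -0.18. The higher one was Plxnd1, at 35.4 CPM (24.4 to 49.7) in 19 WT members and 90.8 (72.0 to 113) in 39 cKO members. Its log2 ratio was 1.36 (0.76 to 1.99) in all members and 0.83 (0.20 to 1.48) in those with both genes. The lower one was Nrp2, at 72.9 and 11.4 CPM, but 59 of its 68 WT UMIs lay in members with Isl1 alone, and members with both genes had 4 and 1 UMIs. With Isl1 alone Nrp2 was at 170 CPM (129 to 219) in WT and 59.7 (19.4 to 139) in cKO. None of 10 GABA and glutamate receptor genes reached 2-fold, with a median of -0.24 and a range of -0.71 to 0.57. None of the 12 genes of the STING pathway was compared in members, since 1 was sex-linked and left out and the others had too few UMIs.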

How the data were processed

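Single-cell RNA sequencing counts were analysed for 2 libraries of P0 mouse telencephalon, 1 WT and 1 cKO, grouped by the genotype in the labels. The authors deposited raw UMI counts per gene and barcode for 27998 genes. The matrix header names Cell Ranger 3.0.1, while the submitters' processing notes list STAR, Cell Ranger 2, Seurat and mm9, so gene positions are given on GRCm38 (GENCODE M21) only as annotation, and strand use in counting is not given in the sources used here. Cell barcodes, gene names and the counts of the single libraries were used, and the combined matrix, text copies and the authors' cluster comparison (fold changes and p-values) were not. Barcodes with at least 500 genes and at most 10% mitochondrial UMIs were kept.

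UMIs of the cells of a set were summed per library and divided by the total (CPM). Genes with at least 50 UMIs in either sum were compared by log2(CPM + 10), which understates the difference of low genes. At least 2-fold was counted as a difference, and the 19 genes of the rule and mitochondrial, haemoglobin, X-linked and Y-linked genes were left out of these counts (1859 genes). Printed ratios of single genes are of CPM without the added 10 unless stated. Intervals are 95% (Poisson, exact conditional binomial for ratios, Clopper-Pearson for shares, Newcombe for differences of shares) and treat UMIs or cells as independent. With 1 library per genotype no test and no p-value was possible. Genes named were the 10 highest and 10 lowest in cKO over WT among those whose intervals did not overlap, and genes of fixed lists. Beside them were the 10 highest and 10 lowest in direct over indirect and over other GABAergic neurons by the smaller difference of the 2 libraries. These had to lie on the same side in both libraries. Indirect pathway-type neurons met the mirror of the rule, and other GABAergic, cortical glutamatergic and microglial cells were set by marker counts. The members and lists were chosen with earlier results of these data known. Scrublet (in scanpy 1.11.5) called 165 WT barcodes, 3 of them members, and no cKO barcode at its automatic threshold. That threshold was not used, so doublets stayed in. An alternative left out the highest Scrublet scores by the same rule in both libraries. The fold computation was checked on simulated counts, which says nothing of the spread between animals. Alternatives covered the barcode filter, the thresholds of the rule, thinning to 2000 UMIs, TMM scaling (edgeR 4.0.16), the added CPM, the minimum of UMIs and doublets. Near-identical genes were found with BLAST 2.17.0. Results of 2 genes are not reported here.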

Additional observations from a re-analysis of the deposited data

Results flagged for a closer look

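For 3 genes the libraries differed in opposite directions in direct and indirect pathway-type neurons, on the scale of log2(CPM + 10) of cKO over WT. The difference between the 2 types was not tested, since each had 1 library per genotype. Npy, a neuropeptide of interneurons, had 2.65 in direct and -2.41 in indirect cells, and 1 cKO member held 92.9% of its UMIs. Sparc, a matrix protein of glia and vessels, had 2.27 and -2.05, with UMIs in 5 WT and 6 cKO members. Sepp1, a secreted selenoprotein, had 1.02 and -3.41: members had 1 UMI in WT and 11 in cKO, 63.6% of them in 1 cell, and indirect cells had 96.1 CPM in WT and no UMI in cKO. The WT indirect cells also carried vessel markers, with endothelial genes summing to 258 CPM against 3.96 in cKO and mural genes to 144 against 2.97 CPM, and members 0 and 1.14 CPM and 9.65 and 7.95 CPM. Their part in the ratios was not tested.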

How the results depend on the processing

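No paired analysis was possible because each genotype had 1 library and the labels gave no replicate numbers. With 1 library per genotype, no value could be recomputed without a replicate, and low depth limits genes under about 50 UMIs. The difference in the share of members turned to 0.134 points with no barcode filter and 0.235 with the stricter one, and was 0.0064 with 2 of 3 genes required. Genes at least 2-fold higher in cKO numbered 16 with the stricter barcode filter, 24 after thinning, 114 with 1 CPM added, 158 with at least 20 UMIs, 7 with at least 200 and 182 with no minimum. Those lower numbered 40, 59, 311 (at least 20 UMIs), 16 (200) and 406 (none), and 72 in members with Isl1 and Ebf1, where 82 were higher. Genes higher in the direct than the indirect type numbered 2 (stricter), 14 (thinned), 49, 5 and 60 (20, 200 and no minimum). Those lower numbered 0 (stricter), 2, 16, 4 and 19 in the same order, 14 in members with Isl1 and Ebf1, and 16 without members with glial UMIs. Fewer cells or genes entered the stricter, thinned and 200-UMI settings. For the rest the cause was not tested.

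On the scale of log2(CPM + 10), cKO over WT turned for Npy (-0.37 with no barcode filter, -0.053 stricter, -0.15 with a threshold of 5 UMIs, -0.31 with 2 of 3 genes, -1.22 thinned, -0.27 with Isl1 and Ebf1, -0.14 without members with Sst or Npy). Fgfbp3 turned to -0.20 without the highest doublet scores and -0.19 without glial members. Olig1 turned to 0.42 without the highest doublet scores, Sparc to -0.77 with a threshold of 2 UMIs, and Six3 to 1.23 and Vim to -1.18 with the stricter barcode filter. For 45 gene ratios under the 14 of 17 alternatives that bear on them, 4 of the 17 added after seeing the data (highest doublet scores left out, members with Isl1 and Ebf1, and leaving out members with glial or with Sst and Npy UMIs), 490 values stayed within the counting interval of the reported ratio or within 0.1 of it, 127 moved further and 13 of ratios of at least 2-fold turned. Of the 23 ratios of at least 2-fold, 16 kept 1 sign throughout, and Ndnf, besides those that turned, had no difference under 1 alternative. Of the 22 ratios under 2-fold, 19 changed sign under at least 1 alternative, 14 of them with the stricter barcode filter (11 and 12 members), where Ppp1r1b went from 0.87 to -1.29 and Meis2 from -0.08 to 0.99. Doublet removal at the automatic Scrublet threshold was not run.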

Other observations

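Genes that respond to glucocorticoids, the clock or fasting were mostly too sparse in members for the comparison. Of 12 listed, 1 was sex-linked and left out of the counts, and of the others Arrdc4 alone had enough UMIs. Per1, a clock gene that glucocorticoids induce, had 11 UMIs in 9 WT members and 48 in 29 cKO members, under the minimum of 50, or 11.8 CPM (5.89 to 21.1) and 54.5 CPM (40.2 to 72.3). Its log2 ratio of cKO over WT was 2.21 (1.24 to 3.30) in members, 1.29 in indirect, 1.64 in other GABAergic and 1.38 in cortical glutamatergic neurons. Summed over the list, members had 261 CPM in WT and 480.3 in cKO, but the 10 genes other than Arrdc4 and Per1 summed to 213 and 191 CPM. Arrdc4 and Per1 were left out because they were seen to be high in cKO, so a smaller remainder was set in advance. It shows only that the excess lay in these 2 genes. Both sums hold the sex-linked gene, and sex differed between the libraries. None of 5 immediate early genes with enough UMIs differed at least 2-fold in members, with a median of 0.16 on the scale of log2(CPM + 10). Over all genes 2.11% were higher and 4.23% lower, so this count is near that background. Per1 was singled out after its values were seen.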
